A study of Mus musculus with 8 samples.

Results

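Fatty acid synthesis and desaturation are carried out by a small set of enzymes, and the chromatin around 9 of their genes, Scd1, Scd2, Fasn, Acaca, Acly, Srebf1, Elovl6, Fads1 and Fads2, was described here. A region was given to a gene when its centre lay in the gene body. It was also given when the centre lay within 50 kb of the body and an end of that gene was the nearest end of any protein-coding gene. This rule gave 92 of the 128057 deposited regions: 27 to Elovl6, 20 to Acaca, 15 to Scd1, 9 to Scd2, 7 to Srebf1, 6 to Fads1, 4 to Fads2, and 2 each to Fasn and Acly. No region went to more than 1 of the 9 genes.

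The study used ATAC-seq, in which a transposase cuts open chromatin and the cut sites are sequenced. A count is thus a measure of accessibility and not of transcription. The cells were type 1 conventional dendritic cells (cDC1s), a subset that takes up tumour antigen and presents it to CD8 T cells. They came from wild-type mice bearing tumours of B16-OVA, melanoma cells of mouse origin that make ovalbumin, which serves as a marker antigen. There were 4 libraries taken 7 days and 4 taken 21 days after inoculation of the tumour, with no other treatment or allele named. Ages, and whether animals were pooled for a library, are not given in the labels. Since the days differ in tumour age and in the animals used, these cannot be told apart.

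De novo synthesis starts in the cytosol, where ATP-citrate lyase (Acly) splits citrate into acetyl-CoA, acetyl-CoA carboxylase 1 (Acaca) makes malonyl-CoA from it, and fatty acid synthase (Fasn) joins these units into palmitate. Elovl6 lengthens palmitate to stearate, the stearoyl-CoA desaturases (Scd1 and Scd2) put the first double bond into saturated chains, and the desaturases Fads1 and Fads2 act on polyunsaturated chains. Srebf1 codes for the transcription factor SREBP-1, which is released from the membrane when sterols are low and drives many of these genes. The isoform SREBP-1c is itself induced by the oxysterol receptors LXR. Dendritic cells are known to need fatty acid synthesis for membrane expansion on activation, and lipid accumulation in tumours is a described feature of them.

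The RefSeq promoter table (GRCm38.p6, the assembly of mm10) held entries for 6 of the 9 genes. The 250 bases before 4 of these starts are shown because each lies under a region described below: the Srebf1 start under its lower region, the Srebf1 start under a region that did not pass, and the starts of Acly and Fasn. All 4 are read on the minus strand of chromosome 11, and the positions before the start are chr11:60210472-60210721, chr11:60220628-60220877, chr11:100528001-100528250 and chr11:120824548-120824797 in that order. Capitals mark matches to the motifs named after the sequences.
Srebf1 start at 60210471: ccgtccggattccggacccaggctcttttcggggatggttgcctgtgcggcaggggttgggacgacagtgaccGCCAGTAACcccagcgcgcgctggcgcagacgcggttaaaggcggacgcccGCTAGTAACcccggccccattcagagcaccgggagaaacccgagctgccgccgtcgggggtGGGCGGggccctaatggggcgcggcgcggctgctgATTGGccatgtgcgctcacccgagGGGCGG
Srebf1 start at 60220627: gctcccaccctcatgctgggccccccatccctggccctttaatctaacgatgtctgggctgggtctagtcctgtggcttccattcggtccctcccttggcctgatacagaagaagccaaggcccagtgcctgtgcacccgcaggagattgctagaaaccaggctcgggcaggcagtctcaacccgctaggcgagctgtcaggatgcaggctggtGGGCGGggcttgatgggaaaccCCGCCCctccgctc
Acly start at 100528000: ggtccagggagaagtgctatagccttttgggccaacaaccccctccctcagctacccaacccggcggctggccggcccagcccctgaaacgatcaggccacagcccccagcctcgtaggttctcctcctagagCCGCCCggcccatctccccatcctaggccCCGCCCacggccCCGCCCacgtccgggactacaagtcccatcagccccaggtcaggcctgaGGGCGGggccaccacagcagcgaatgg
Fasn start at 120824547: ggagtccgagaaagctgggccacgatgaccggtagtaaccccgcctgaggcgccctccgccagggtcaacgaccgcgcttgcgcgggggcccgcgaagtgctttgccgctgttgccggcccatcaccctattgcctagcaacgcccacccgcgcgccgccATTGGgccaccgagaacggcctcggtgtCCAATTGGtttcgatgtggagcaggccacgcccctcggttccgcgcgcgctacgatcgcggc

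The motifs searched on both strands were the sterol regulatory element TCACNCCAC, the E-box CACGTG, the NF-Y box CCAAT and the GC box GGGCGG. The core GTTACTNGC of the LXR element was added after these promoter sequences had been seen. Distances are those of the first base of a match, as printed, before the start. The Srebf1 start at 60210471 held 2 LXR element cores, at 177 and 126 bases, with 1 NF-Y box at 30 bases and GC boxes at 65 and 6 bases. The pair of LXR elements is a known feature of the SREBP-1c promoter. Its neighbour at 60220627 held 2 GC boxes, at 36 and 14 bases, and no LXR element core. Acly held 4 GC boxes, at 117, 88, 76 and 27 bases. Fasn held 3 NF-Y boxes, at 90, 62 and 59 bases, of which the last 2 overlap on opposite strands. No sterol regulatory element or E-box of these letters was in the 8 windows of the 6 genes. Among the 32851 RefSeq windows of the same length, 0.283% held the LXR core, 1.05% the sterol regulatory element, 6.02% the E-box, 33.8% the NF-Y box and 32.7% the GC box.

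Total counts in regions ran from 9440223 to 16063736 per library at day 7 and from 14021151 to 27737040 at day 21, so the day 21 libraries were mostly the deeper ones. Counts are given as CPM, counts scaled to a common library total after TMM factors, and a mean has its SD over 4 libraries. The log2 fold change is day 21 over day 7 with its SE, and a call needs a Benjamini-Hochberg adjusted p under 0.05 over all features of the fit. The labels do not say that the libraries came from separate animals, so the p-values cover the spread among libraries, which may be technical. Of the cDC1 label's markers, 10 of 11 listed cDC1 genes had a region at a gene end, Xcr1, Clec9a and Batf3 among them, and the exception was Itgae. Their summed gene-end accessibility was 444 to 470.4 CPM at day 7 and 432 to 472 CPM at day 21.

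Of the 92 regions, 89 passed the filter on low counts, and 17 of these were called, 12 lower and 5 higher at day 21. The share called was 19.1%, against 19.4% of all 121865 tested regions, where 9.50% were higher and 9.86% lower. The 9 genes' regions were thus called about as often as regions in general, and what follows describes where the calls lay. Scd2 held 5 of the 12 lower regions, Elovl6 held 3, Scd1 held 2, and Acly and Srebf1 held 1 each. The higher ones were 2 of Elovl6 and 1 each of Scd1, Acaca and Fads2, while no region of Fasn or Fads1 was called. In edgeR 1 region of each had an unadjusted p under 0.05, and DESeq2 and limma-voom called none. Every library of one day lay beyond every library of the other in 21 of the 89 regions, 15 of them among the 17 called. This share of 23.6% stood beside 19.8% of all tested regions. By position, 5 of 26 flanking regions, 4 of 49 in gene bodies and 3 of 14 at gene ends were lower, and 1, 3 and 1 were higher. The count of 5 higher regions was 3 with DESeq2, 1 without day 7 replicate 4, 2 without day 21 replicate 3 or 4, and 3 without day 7 replicate 1 or 3, while the lower count stayed between 9 and 14. The median log2 fold change over the 89 regions was -0.03, against 0.00 over all regions.

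**Figure D1:**
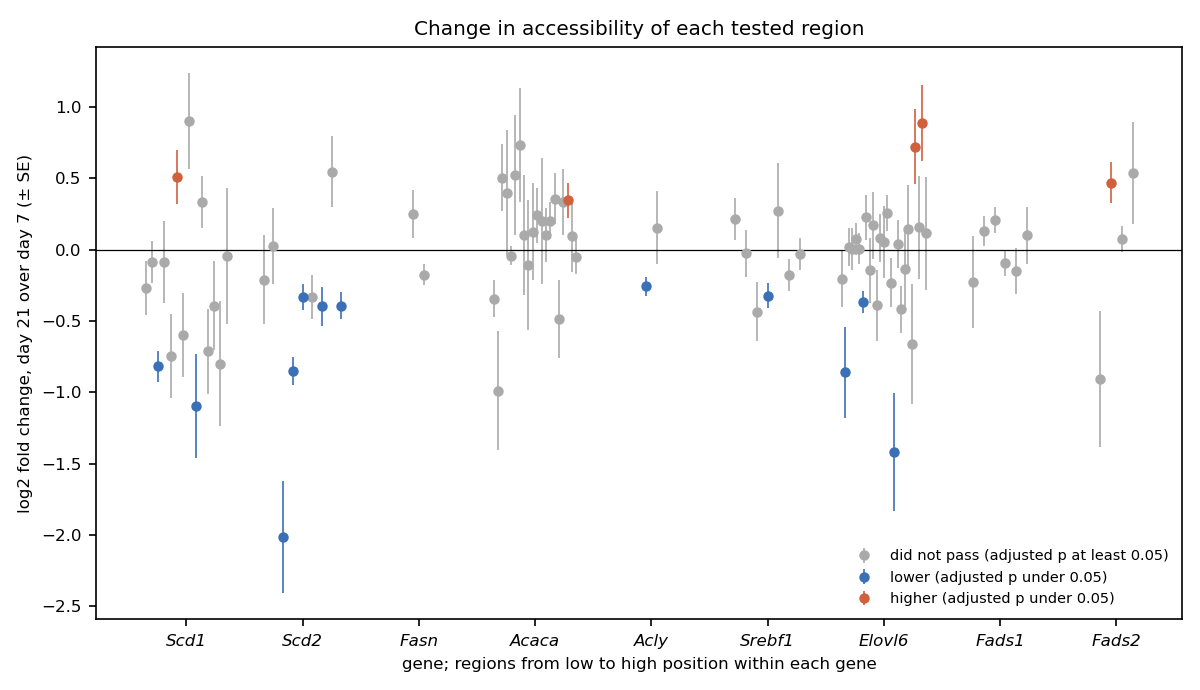
Log2 fold change of accessibility, day 21 over day 7 (vertical axis, bars are SE), for each of the 89 tested regions, placed by gene and in coordinate order within a gene. Blue marks the 12 lower and orange the 5 higher regions, and Scd2 shows the most lower regions with 5.

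Summing all regions of a gene, 4 of the 9 genes fell and none passed as higher: Scd2, Scd1, Acly and Srebf1. In these 4 the days did not overlap, as in 29.1% of all gene sums. Over all 16959 genes tested in this way 33.5% were called, 14.5% higher and 19.1% lower. The median over the 9 genes was -0.12, beside -0.03 over all genes. At an unadjusted p under 0.05 in edgeR 1 gene was higher, Fads2, which was also the 1 gene called higher by DESeq2, while limma-voom called none. In regions at the gene ends (within 1000 bp of either annotated end), Scd2, Acly, Fasn and Acaca fell and none rose, where 31.3% of 13572 genes were called, 6.71% higher and 24.6% lower. There too Fads2 was higher at an unadjusted p under 0.05 and in DESeq2, and not in limma-voom. The gene-end calls moved with the scaling: DESeq2, with size factors of its own from these sums, called 2 of the 9 lower and 1 higher, and trended offsets called 1 lower and 1 higher. Without day 7 replicate 4 or day 21 replicate 1 the lower count was 2, and without day 7 replicate 3 Fads2 passed as higher. Over all genes, 21.4% of the gene-end calls were higher, against 49.5% with DESeq2 and 49.7% with trended offsets. The median gene-end change over all genes was -0.09, and -0.00437 with trended offsets. A sum over regions depends on how many regions a gene has and on their widths, and levels are therefore not compared between genes except per kb.

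**Figure D2:**
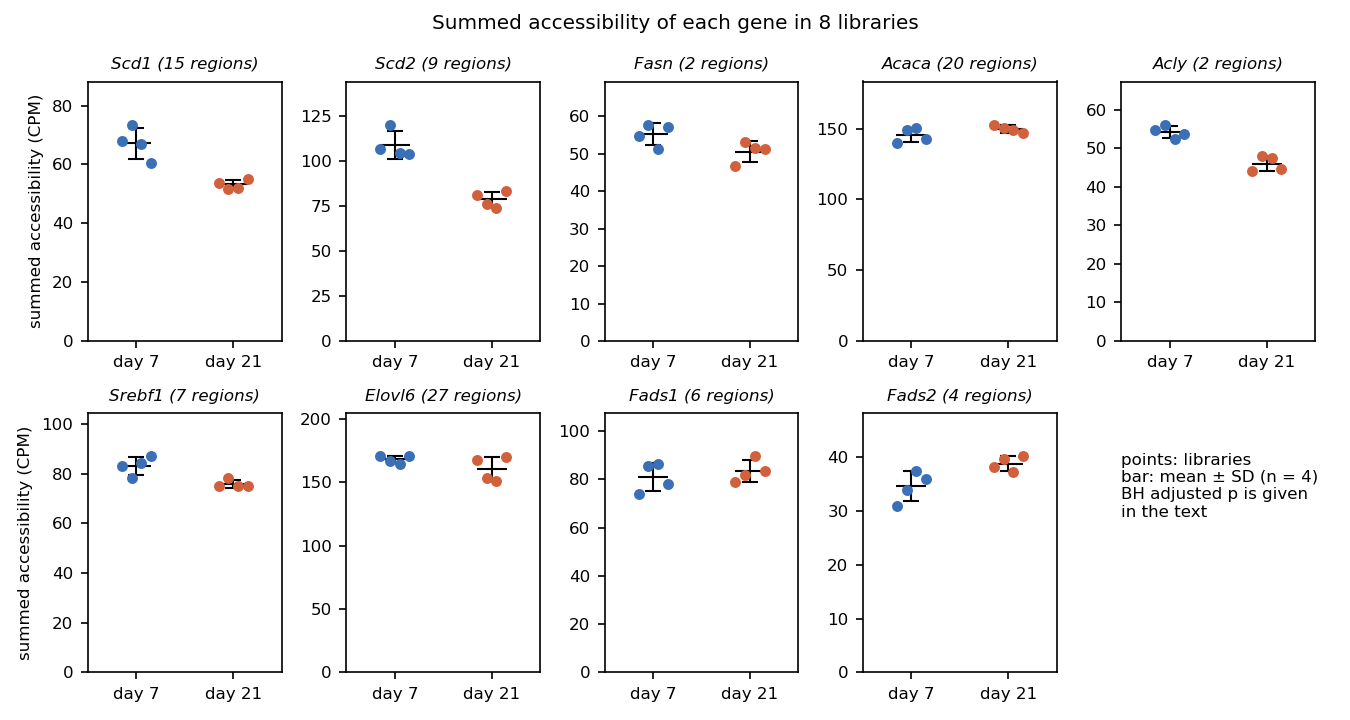
Summed accessibility (CPM, axis from 0) of the regions of each gene in the 8 libraries; points are libraries and bars the mean ± SD (n = 4). The days do not overlap for Scd1, Scd2, Acly and Srebf1, and they overlap for the other genes.

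Srebf1, the regulator, summed over 7 regions to 83.1, 78.4, 84.2 and 86.99 CPM at day 7 and 74.96, 78.03, 75.1 and 74.99 CPM at day 21. Every day 21 library lay below every day 7 library, but the nearest values, 78.4 at day 7 and 78.03 at day 21, were close together. The sum fell from 83.2 ± 3.58 CPM at day 7 to 75.8 ± 1.51 CPM at day 21 (log2 fold change -0.14 ± 0.05 SE, with an edgeR adjusted p = 0.0430). This call was lost under 7 of 18 alternative analyses, without any of the 3 day 7 libraries with the numbers 1, 3 and 4 or day 21 replicate 1 or 4, and with DESeq2 and trended offsets (adjusted p = 0.0667 to 0.152). Most of the difference lay in a single region, chr11:60210272-60210757, which covers the start at 60210471 shown above. That region held 29.4, 24.9, 27.8 and 30.01 CPM at day 7 and 19.97, 24.7, 22.5 and 22.7 CPM at day 21. It fell from 28.02 ± 2.303 CPM at day 7 to 22.5 ± 1.95 CPM at day 21 (log2 fold change -0.32 ± 0.09 SE, with an edgeR adjusted p = 0.00604). The days did not overlap, and it kept its call in all 15 alternatives of the region fit. The rest of the gene, 6 regions together, went from 55.2 ± 1.78 to 53.3 ± 1.19 CPM. The region at 60210272 made up 75.1% of the difference in CPM. The region over the start at 60220627, chr11:60220227-60220859, went from 16.9 ± 1.61 CPM at day 7 to 14.9 ± 1.22 CPM at day 21 and did not pass (log2 fold change -0.18, adjusted p = 0.269). The 250 bases before a further start, at 60222581, overlap chr11:60222698-60223293, which held 17.1 ± 3.71 and 16.9 ± 0.673 CPM (log2 fold change -0.03, adjusted p = 0.879). Whether the change at the start under chr11:60210272-60210757 differed from that at the other starts was not tested. At the other end of the gene, chr11:60199671-60200087 also lies at an end of Rai1, and its change did not pass (log2 fold change -0.44, adjusted p = 0.135). The flanking regions chr11:60175600-60176994 and chr11:60185921-60186336 lie in the body of Rai1, so that their counts belong to both genes. For chr11:60210272-60210757, inside Srebf1, the nearest gene end is also one of Rai1, and its counts enter the sum of Rai1 as well.

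Acly, which makes the acetyl-CoA, had nearly all of its signal in 1 region over its promoter, chr11:100527042-100528329, and that region fell. It held 51.9, 52.5, 49.9 and 52.1 CPM at day 7 and 41.3, 45.6, 43.9 and 41.8 CPM at day 21. The lowest day 7 library, at 49.9 CPM, stood above the highest day 21 library, at 45.6 CPM. The mean went from 51.6 ± 1.14 CPM at day 7 to 43.2 ± 1.96 CPM at day 21 (log2 fold change -0.26 ± 0.07 SE, with an edgeR adjusted p = 0.00451), a call kept in all 15 alternatives of the region fit. The gene sum of 2 regions behaved alike, from 54.2 ± 1.56 CPM at day 7 to 45.99 ± 1.89 CPM at day 21 (log2 fold change -0.24 ± 0.06 SE, with an edgeR adjusted p = 0.00288). As a gene-end sum the counts of the promoter region passed too (log2 fold change -0.26, edgeR adjusted p = 0.00196). That call was lost under 1 of 16 alternatives, trended offsets (log2 fold change -0.15, adjusted p = 0.0552). GC boxes, as in the Acly sequence above, are bound by Sp1-type factors in many housekeeping promoters, and 32.7% of all windows hold at least 1.

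Acaca, the carboxylase, had 20 regions, 19 in a gene body of 272 kb and 1 centred just below it. Its sum was 140.0, 149, 151 and 143 CPM at day 7 and 153, 151, 149 and 147 CPM at day 21. The days overlapped and the change did not pass (log2 fold change 0.04, adjusted p = 0.515). Its strongest region, chr11:84179251-84180476 inside the gene, carried 44.8% of the day 7 signal and stood at 65.2 ± 4.04 and 63.4 ± 1.05 CPM. The gene end nearest to that region is one of Gm11437, so its counts enter the sum of Gm11437 as well. Near the high-coordinate end of the body, chr11:84368831-84369319 was higher at day 21, with 9.47, 12.00, 12.1 and 11.3 CPM at day 7 and 13.2, 14.7, 15.03 and 13.9 CPM at day 21. The 2 days did not overlap there (log2 fold change 0.34 ± 0.12 SE, with an edgeR adjusted p = 0.0334). The call was lost under 6 of 15 alternatives, without day 7 replicate 1 or 4 or any of the 3 day 21 libraries with the numbers 2, 3 and 4, and with trended offsets (adjusted p = 0.0676 to 0.138). At the low-coordinate end, chr11:84129125-84129863 lies in the body and at an end of Tada2a as well, so that its counts belong to both genes. It held 11.9, 11.3, 13.6 and 11.8 CPM at day 7 and 8.86, 8.66, 9.31 and 11.1 CPM at day 21, and as a region it did not pass (adjusted p = 0.0518). As a gene-end sum, fitted and adjusted among all gene-end sums, the same counts passed (log2 fold change -0.34, edgeR adjusted p = 0.0314). That call was lost under 6 of 16 alternatives, without day 7 replicate 3 or 4 or day 21 replicate 1 or 2, and with DESeq2 and trended offsets (adjusted p = 0.05001 to 0.173).

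Fasn, which builds palmitate, had 2 regions, and the one over its promoter, chr11:120823671-120824928, carried 89.2% of the signal. Its libraries held 50.1, 51.8, 43.8 and 51.4 CPM at day 7 and 40.4, 45.2, 44.03 and 44.6 CPM at day 21. Day 7 replicate 3 lay among the day 21 libraries, while the other 3 day 7 libraries lay above all of them. The region went from 49.3 ± 3.76 CPM at day 7 to 43.6 ± 2.15 CPM at day 21 and did not pass (log2 fold change -0.18, adjusted p = 0.0747). The gene-end sum of the same counts did (log2 fold change -0.18 ± 0.07 SE, edgeR adjusted p = 0.0435). The gene-end call was lost under 8 of 16 alternatives, without any of the 3 day 7 libraries with the numbers 1, 2 and 4 or day 21 replicate 1 or 4, and with DESeq2, trended offsets and windows of 2000 bp (adjusted p = 0.0592 to 0.463). The other region of Fasn, chr11:120823090-120823389, went from 5.94 ± 1.18 CPM at day 7 to 7.05 ± 0.759 CPM at day 21 (log2 fold change 0.25, adjusted p = 0.326).

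Elovl6, the elongase that turns palmitate into stearate, had the most regions and mixed calls. Its sum was 170.2, 167, 165 and 170.4 CPM at day 7 and 167, 153, 151 and 169 CPM at day 21, with 2 day 21 libraries below and 2 among the day 7 libraries (log2 fold change -0.07, adjusted p = 0.260). The strongest region, chr3:129536170-129536602, lies 4.00 kb inside the low-coordinate end and held 40.4, 39.6, 37.7 and 38.4 CPM at day 7 and 32.3, 31.8, 28.1 and 29.2 CPM at day 21. All 4 day 21 libraries lay below the day 7 ones there, and the fall from 39.02 ± 1.202 CPM at day 7 to 30.3 ± 2.05 CPM at day 21 was called in every alternative of the region fit (log2 fold change -0.37 ± 0.08 SE, with an edgeR adjusted p = 0.000292). Without this region the other 26 stood at 129 ± 2.38 and 129.8 ± 9.23 CPM. The promoter region, chr3:129532067-129532609, held 13.9, 15.3, 15.1 and 16.5 CPM at day 7 and 16.5, 16.4, 12.8 and 18.04 CPM at day 21, with overlapping days (log2 fold change 0.07, adjusted p = 0.718). The other calls in Elovl6 were at weak regions. Below the gene, chr3:129494131-129494562 fell from 2.13 ± 0.403 CPM at day 7 to 1.17 ± 0.2198 CPM at day 21 (log2 fold change -0.86, adjusted p = 0.0485). This call was lost under 10 of 15 alternatives, without any of the 3 day 7 libraries with the numbers 1, 3 and 4 or any of the 4 day 21 libraries with the numbers 1, 2, 3 and 4, and with DESeq2, the replicate number as a block and trended offsets (adjusted p = 0.0509 to 0.148). Inside the gene, chr3:129588683-129589081 fell from 1.66 ± 0.368 CPM at day 7 to 0.627 ± 0.151 CPM at day 21 (log2 fold change -1.42, adjusted p = 0.00972). Beyond the high-coordinate end, chr3:129652361-129652750 rose from 1.58 ± 0.3100 CPM at day 7 to 2.98 ± 0.376 CPM at day 21 (log2 fold change 0.89, adjusted p = 0.0129). The higher call at chr3:129631414-129631820 had 1 day 7 library, replicate 1, at 4.49 CPM, above every day 21 library. The means were 2.22 ± 1.56 and 3.71 ± 0.485 CPM (log2 fold change 0.72, adjusted p = 0.0443). Leaving that library out raised the log2 fold change to 1.29. The call was lost under 7 of 15 alternatives, without any of the 3 day 7 libraries with the numbers 2, 3 and 4 or any of the 3 day 21 libraries with the numbers 1, 3 and 4, and with DESeq2 (adjusted p = 0.0630 to 0.183).

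**Figure D3:**
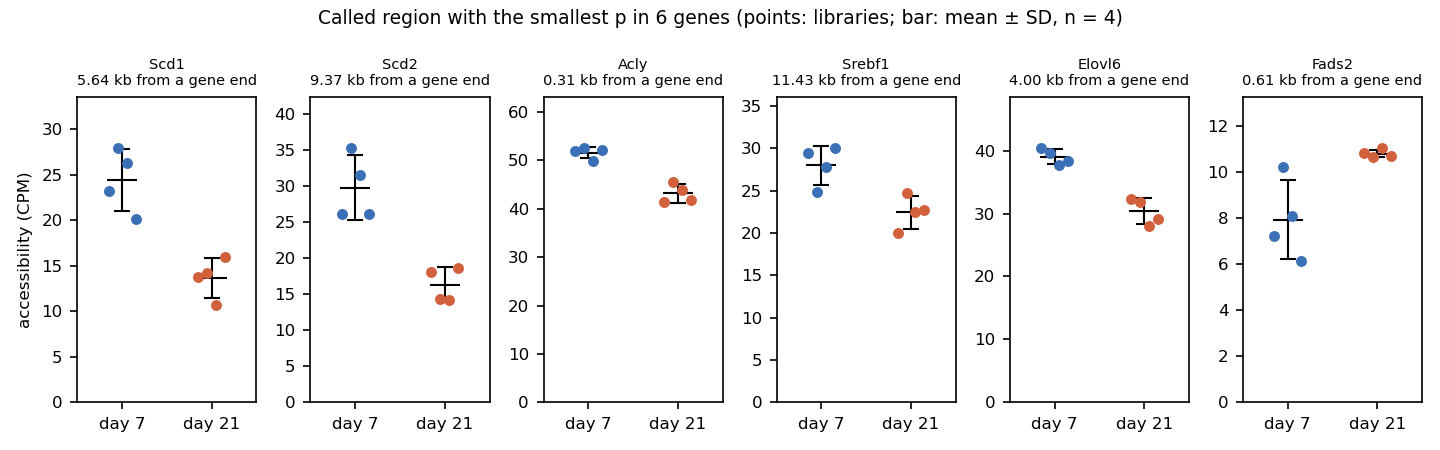
Accessibility (CPM, axis from 0) in the 8 libraries of the called region with the smallest p in 6 of the 7 genes that had one (Acaca is not drawn); points are libraries and bars the mean ± SD (n = 4). The first 5 regions are lower at day 21 without overlap, and the Fads2 region is higher, its day 7 libraries reaching 10.2 CPM and its day 21 libraries starting at 10.6 CPM.

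The desaturase genes Scd1 and Scd2 both fell as sums, with 5 lower regions in Scd2 and 2 in Scd1. Scd1, on chr19:44394450-44407709, summed over its 15 regions to 67.9, 73.5, 66.9 and 60.6 CPM at day 7 and 53.9, 51.8, 52.05 and 55.2 CPM at day 21. Every day 21 library was below every day 7 library. The sum fell by 20.4% (log2 fold change -0.33 ± 0.06 SE, with an edgeR adjusted p = 3.22e-05). Scd2, on chr19:44293676-44306864, summed over 9 regions to 107, 120.4, 104 and 104 CPM at day 7 and 81.5, 76.3, 73.8 and 83.4 CPM at day 21. The gap between the days was wider for Scd2, whose lowest day 7 library stood at 104 and whose highest day 21 library stood at 83.4 CPM. Its sum fell by 27.4% (log2 fold change -0.46 ± 0.05 SE, with an edgeR adjusted p = 1.47e-09).

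From low to high coordinates, the Scd2 map opens with 2 weak regions, chr19:44271650-44271838 and chr19:44281912-44282128, at means of 1.92 and 2.32 CPM at day 7 and 1.602 and 2.39 CPM at day 21, neither of which passed. Next, chr19:44283114-44283411 held 2.41, 2.12, 2.78 and 1.86 CPM at day 7 and 0.844, 0.1203, 0.589 and 0.676 CPM at day 21. Of the 89 regions it had the lowest fitted value (log2 fold change -2.02 ± 0.39 SE, with an edgeR adjusted p = 8.56e-05), at a level of few counts per library. Its neighbour chr19:44283985-44284636, centred 9.37 kb below the low-coordinate end of Scd2, was the strongest Scd2 region at day 7, though not at day 21. This neighbour held 26.1, 35.3, 31.6 and 26.2 CPM at day 7 and 18.1, 14.4, 14.1 and 18.7 CPM at day 21. It fell from 29.8 ± 4.48 CPM at day 7 to 16.3 ± 2.400 CPM at day 21 (log2 fold change -0.85 ± 0.10 SE, with an edgeR adjusted p = 1.07e-09) and made up 44.5% of the fall of the gene sum in CPM. At the low-coordinate end, chr19:44293582-44294430 held 29.4, 27.1, 24.5 and 26.97 CPM at day 7 and 20.04, 22.3, 20.04 and 23.1 CPM at day 21, again without overlap (log2 fold change -0.33 ± 0.09 SE, with an edgeR adjusted p = 0.00533). Inside the gene, chr19:44294745-44295102 went from 8.87 ± 1.42 CPM at day 7 to 6.97 ± 0.881 CPM at day 21 and did not pass (log2 fold change -0.33, adjusted p = 0.119). Next to it, chr19:44295789-44296101 went from 11.6 ± 0.889 CPM at day 7 to 8.89 ± 1.93 CPM at day 21 (log2 fold change -0.40, adjusted p = 0.0331). In the latter, day 21 replicate 1, at 11.7 CPM, lay within the day 7 range. The call was lost under 6 of 15 alternatives, without any of the 3 day 7 libraries with the numbers 1, 2 and 4 or any of the 3 day 21 libraries with the numbers 2, 3 and 4 (adjusted p = 0.0662 to 0.101). Further in, chr19:44299229-44299623 stood at 2.22 ± 0.469 and 3.24 ± 0.3899 CPM (log2 fold change 0.55, adjusted p = 0.115). The last Scd2 region, chr19:44314282-44315377, centred 7.97 kb above the high-coordinate end, held 23.8, 24.9, 20.7 and 22.4 CPM at day 7 and 17.2, 16.2, 17.4 and 18.6 CPM at day 21 and fell (log2 fold change -0.39 ± 0.10 SE, with an edgeR adjusted p = 0.00192). Leaving out the region at 44283985, the other 8 together still went from 79.2 ± 5.19 to 62.4 ± 2.15 CPM, a log2 ratio of means of -0.34.

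The Scd1 map differed in shape, with 1 strong region that fell and many weak ones. It opens at chr19:44373009-44373334 (5.64 ± 0.483 and 4.64 ± 1.16 CPM), which did not pass, and chr19:44379040-44379238, which was under the filter on low counts. The next, chr19:44384392-44384933, held 10.6 ± 2.62 and 9.89 ± 1.73 CPM with overlapping libraries (log2 fold change -0.09, adjusted p = 0.735). The leading region, chr19:44388366-44389257, is centred 5.64 kb below the low-coordinate end and held 23.3, 27.9, 26.3 and 20.2 CPM at day 7 and 13.8, 14.2, 10.7 and 15.97 CPM at day 21. The lowest day 7 library, replicate 4 at 20.2 CPM, was above the highest day 21 library, at 15.97 CPM. The region fell from 24.4 ± 3.42 CPM at day 7 to 13.7 ± 2.18 CPM at day 21 (log2 fold change -0.82 ± 0.11 SE, with an edgeR adjusted p = 2.89e-08). It kept its call in all 15 alternatives and made up 76.8% of the fall of the gene sum in CPM. Without it the other 14 regions stood at 42.8 ± 2.68 and 39.6 ± 1.56 CPM, a log2 ratio of means of -0.11.

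Around the Scd1 gene itself the signal was low and went in both directions. Below the gene, chr19:44392724-44392948 stood at 2.25 ± 0.725 and 2.15 ± 0.781 CPM (adjusted p = 0.874). The region chr19:44393958-44394273 at the low-coordinate end went from 2.54 ± 0.6395 CPM at day 7 to 1.48 ± 0.421 CPM at day 21 without passing (log2 fold change -0.75, adjusted p = 0.0628). Inside the gene, chr19:44401759-44402136 held 4.32, 4.04, 3.37 and 4.23 CPM at day 7 and 4.78, 4.93, 6.96 and 5.98 CPM at day 21. Its days did not overlap, and it was called higher at the very edge of the threshold (log2 fold change 0.51 ± 0.19 SE, with an edgeR adjusted p = 0.0499). It was lost under 12 of 15 alternatives, without any of the 4 day 7 libraries with the numbers 1, 2, 3 and 4 or day 21 replicate 3 or 4, and with DESeq2, library totals without TMM, limma-voom, no filter, the replicate number as a block and trended offsets (adjusted p = 0.0515 to 0.205). A neighbour in the gene, chr19:44404012-44404223, went from 2.37 ± 0.317 CPM at day 7 to 1.55 ± 0.491 CPM at day 21 (adjusted p = 0.154). At the high-coordinate end 3 regions lie within 1000 bp. The lowest, chr19:44407335-44407616, missed the threshold narrowly, going from 1.05 ± 0.331 CPM at day 7 to 1.93 ± 0.271 CPM at day 21 (log2 fold change 0.90, adjusted p = 0.0502). The middle one, chr19:44407765-44407995, fell from 1.86 ± 0.2798 CPM at day 7 to 0.848 ± 0.292 CPM at day 21 (log2 fold change -1.10, adjusted p = 0.0250). Without day 7 replicate 4 or day 21 replicate 1 it no longer passed (adjusted p = 0.0932 and 0.0801). The highest, chr19:44408265-44408968, went from 5.19 ± 0.878 CPM at day 7 to 6.62 ± 1.57 CPM at day 21 and did not pass (log2 fold change 0.33, adjusted p = 0.210). Together, the 4 gene-end regions of Scd1 held 9.72, 12.5, 8.43 and 11.9 CPM at day 7 and 12.02, 9.99, 11.3 and 10.2 CPM at day 21, with full overlap (log2 fold change 0.03, adjusted p = 0.901). The regions above the gene, chr19:44410672-44410970, chr19:44413121-44413425, chr19:44419081-44419338 and chr19:44441873-44442112, held 2.49, 1.91, 1.21 and 0.907 CPM at day 7 and 1.52, 1.43, 0.705 and 0.922 CPM at day 21, and none passed. With the gene body only, and thus without the leading region, the Scd1 sum turned direction (log2 fold change 0.31, adjusted p = 0.0994, not called).

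**Figure D4:**
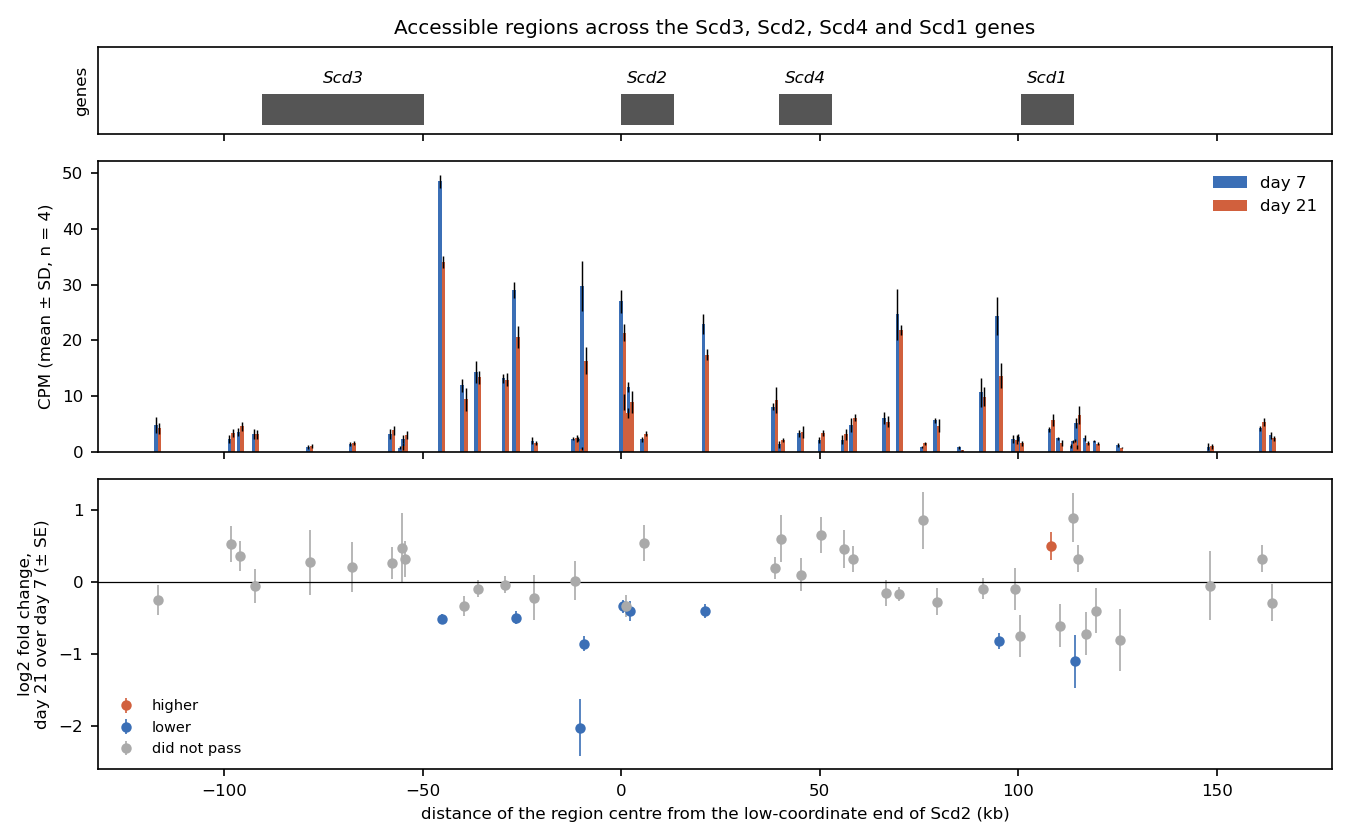
Map of the Scd3, Scd2, Scd4 and Scd1 genes: gene bodies (top), mean ± SD accessibility in CPM at day 7 and day 21 (middle, n = 4 each, axis from 0) and log2 fold change ± SE (bottom) of all 48 tested regions, by distance from the low-coordinate end of Scd2 in kb. The 9 lower regions include 5 of Scd2, 2 of Scd1 and 2 between Scd3 and Scd2, 1 of these at an end of Pkd2l1, which is not drawn, and 1 region, in Scd1, is higher.

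Scd1 and Scd2 lie in a cluster of 4 desaturase genes, with Scd3 below Scd2 and Scd4 between Scd2 and Scd1. In the 304 kb from 50 kb below Scd3 to 50 kb above Scd1, 48 regions were tested, 9 were lower and 1 was higher, beside 9.86% lower and 9.50% higher among all regions. Of the 25 that belong to neither Scd1 nor Scd2, 2 were lower, a share near that of all regions, and both lie below Scd2. The region chr19:44248053-44248773, which holds an end of another gene, Pkd2l1, fell from 48.6 ± 1.14 CPM at day 7 to 34.1 ± 1.08 CPM at day 21 (log2 fold change -0.51, adjusted p = 1.26e-07). The region chr19:44266810-44267509 fell from 29.1 ± 1.41 CPM at day 7 to 20.6 ± 1.98 CPM at day 21 (log2 fold change -0.49, adjusted p = 2.76e-05). Over the strongest region near Scd4, chr19:44363343-44364008, the change did not pass (log2 fold change -0.16, adjusted p = 0.267). As sums, Scd3 stood at 22.2 ± 2.97 and 25.6 ± 0.4799 CPM (log2 fold change 0.19, adjusted p = 0.102). Scd4 stood at 53.2 ± 4.15 and 56.2 ± 4.28 CPM (log2 fold change 0.08, adjusted p = 0.359), and neither passed.

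Whether Scd1 and Scd2 fell by unequal amounts was tested on the log2 ratio of their sums within each library. The ratio was -0.66, -0.71, -0.64 and -0.78 at day 7 and -0.60, -0.56, -0.50 and -0.60 at day 21. The mean rose from -0.70 ± 0.06 to -0.56 ± 0.04 (SD, n = 4). The difference of 0.13 had an exact two-sided permutation p of 0.0286, the smallest that 4 against 4 allows. Adjusted over the 2 ratios tested it was 0.0571 and did not pass. An adjusted value under 0.05 was possible only if the other ratio, Fads1 to Fads2, had also reached 0.0286. The adjusted test therefore could not decide whether the falls were unequal. The days did not overlap in this ratio. With sums over the gene body only, the difference was 0.59 (adjusted exact p = 0.0286, with both ratios at the smallest possible value). For Scd1 that setting leaves out the leading region and keeps weak ones, at day 7 means of 3.99, 2.37 and 1.05 CPM. The strongest region kept for Scd2 held 27.0 CPM at day 7. The body-only ratio thus compares a different set of regions.

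Fads1 and Fads2, the front-end desaturases, are also neighbours on chromosome 19, and neither sum was called. Fads1 summed over 6 regions to 74.1, 85.3, 86.3 and 78.04 CPM at day 7 and 79.04, 81.6, 89.5 and 83.6 CPM at day 21, with overlapping days (log2 fold change 0.05, adjusted p = 0.551). None of its regions was called. Its gene-end region, chr19:10182576-10183749, stood at 27.3 ± 3.56 and 25.6 ± 1.29 CPM (adjusted p = 0.525). Fads2 summed over 4 regions to 30.98, 33.9, 37.4 and 35.9 CPM at day 7 and 38.1, 39.6, 37.2 and 40.1 CPM at day 21. Of the day 21 libraries 3 lay above the highest day 7 library and replicate 3 lay below it, and the change did not pass (log2 fold change 0.17, adjusted p = 0.0719). With DESeq2, with trended offsets, with the gene body only, or without day 7 replicate 3, the sum passed as higher (log2 fold change 0.19, 0.22, 0.35 and 0.21). The called region of Fads2, chr19:10100715-10101077, is centred 0.61 kb inside the end that RefSeq gives as the start. It held 7.23, 10.2, 8.09 and 6.15 CPM at day 7 and 10.8, 10.6, 11.02 and 10.7 CPM at day 21. The day 21 libraries were tightly grouped above all day 7 libraries (log2 fold change 0.47 ± 0.14 SE, with an edgeR adjusted p = 0.0139). Without day 7 replicate 4 the region no longer passed (log2 fold change 0.35, adjusted p = 0.111). The adjoining region over the start, chr19:10101263-10102247, stood at 24.4 ± 3.49 and 25.8 ± 1.74 CPM (adjusted p = 0.636). The log2 ratio of Fads1 to Fads2 was 1.26, 1.33, 1.204 and 1.12 at day 7 and 1.05, 1.04, 1.27 and 1.06 at day 21, a difference of -0.12 (exact two-sided permutation p = 0.114, adjusted 0.114). Over gene bodies only, the difference was -0.44 (adjusted exact p = 0.0286). That setting leaves out the adjoining region over the Fads2 start and a weak Fads2 flanking region. It also leaves out the 3 flanking regions of Fads1, at day 7 means of 1.73, 18.6 and 21.9 CPM. This ratio too thus compares a different set of regions.

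Per kb of region, accessibility at day 7 was highest among the 92 regions in the Elovl6 region at 129536170, with 90.3 CPM per kb, followed by the Srebf1 region at 60210272 with 57.8. Next came the Acaca region at 84179251 with 53.2, the Scd2 region at 44283985 with 45.7, and the promoter regions of Acly with 40.1 and Fasn with 39.2. The leading Scd1 region stood at 27.4 CPM per kb. The Scd1 gene-end regions lay between 3.73 and 8.08 CPM per kb, and the Scd2 gene-end region stood at 31.8. These are levels in single regions, given as a description.

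Of 48 further genes of fatty acid metabolism and its control (elongases, acyl-CoA synthetases, other desaturases, SREBP processing, LXR and related factors), 47 were tested as gene sums: 3 were higher, 8 lower and 36 did not pass. The share called was 23.4%, below the 33.5% of all genes, and their median log2 fold change was -0.00273. Lpin1, the phosphatidate phosphatase lipin 1, held 158, 141, 150.4 and 148 CPM at day 7 and 175, 178, 178 and 162 CPM at day 21 and rose without overlap (log2 fold change 0.21 ± 0.05 SE, with an edgeR adjusted p = 0.000319). Elovl5, an elongase of polyunsaturated chains, went from 316 ± 14.3 CPM at day 7 to 343 ± 15.9 CPM at day 21 (log2 fold change 0.12, adjusted p = 0.0253). Hacd2, a dehydratase of the elongation cycle, went from 65.5 ± 6.11 CPM at day 7 to 72.9 ± 3.604 CPM at day 21 (log2 fold change 0.15, adjusted p = 0.0438). In both the days overlapped, and leaving out any of several single libraries ended the call. With trended offsets the Elovl5 call was lost too, at a log2 fold change of 0.03 (adjusted p = 0.548). Without day 21 replicate 2, day 21 replicate 3 or day 7 replicate 4 the number of higher genes was 1. On the lower side, Elovl7, a further elongase, held 30.3, 26.6, 34.5 and 29.6 CPM at day 7 and 23.7, 21.1, 19.4 and 26.3 CPM at day 21 (log2 fold change -0.41 ± 0.09 SE, with an edgeR adjusted p = 0.000293). Acsl1, which activates long-chain fatty acids to their CoA esters, fell from 154 ± 12.5 CPM at day 7 to 133 ± 4.900 CPM at day 21 (log2 fold change -0.21, adjusted p = 0.000910). Tecr, the last enzyme of the elongation cycle, fell from 84.7 ± 3.62 CPM at day 7 to 72.8 ± 4.86 CPM at day 21 (log2 fold change -0.22, adjusted p = 0.00202). With the gene body only, the Tecr call was lost (log2 fold change -0.20, adjusted p = 0.0891). Mbtps1, the protease that makes the first cut in SREBP, fell from 59.1 ± 4.36 CPM at day 7 to 50.1 ± 3.403 CPM at day 21 (log2 fold change -0.24, adjusted p = 0.00307). The other 4 lower genes were Mid1ip1, Nr1h3 (LXR alpha), Acsl3 and Mlx. Among the lower genes the days overlapped in Mbtps1, Mid1ip1, Nr1h3 and Acsl3, and not in Elovl7, Acsl1, Tecr and Mlx. At gene ends 7 of the 42 tested were lower in edgeR, and none was higher in edgeR, DESeq2 or limma-voom. At an unadjusted p under 0.05, 1 gene was higher in edgeR, 4 in DESeq2 and 0 in limma-voom. Over all gene-end sums 24.6% were lower and 6.71% higher, and the median change of the list was the same as that of all genes to 2 decimals, -0.09. With DESeq2 or trended offsets 5 of the gene sums were higher, and with the gene body only 6 were higher and 5 lower.

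Among the 13437 genes with an average of at least 10 CPM, the 3 whose sums over the 8 libraries ran most like that of Scd1 were Atxn7l3b, Exosc9 and Pogk, with root mean square differences of centred log2 CPM of 0.0372, 0.0373 and 0.0431. For Scd2 they were Pcbp3, Zfp787 and Setdb1, at 0.0436, 0.0447 and 0.0467. Scd2 ranked 258 among the genes most like Scd1, and Scd1 ranked 51 among those most like Scd2, at a difference of 0.0812 in both cases.

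Other cell types can add to bulk accessibility, and fewer cells of a type and less accessible chromatin per cell cannot be told apart. Of 8 adipocyte markers, which matter here because adipocytes use these genes, Adipoq, Cidec, Lep, Adrb3 and Fabp4 had no region at a gene end, and the other 3 summed to 12.1 to 16.1 CPM at day 7 and 16.8 to 20.1 CPM at day 21. These 3 went different ways: Pparg was higher (log2 fold change 0.71, adjusted p = 4.47e-06) and made up most of the sum, with 9.37 ± 1.01 CPM at day 7 and 15.2 ± 1.07 CPM at day 21. Plin1 was lower (log2 fold change -1.33, adjusted p = 0.0148) but weak, at means of 1.43 CPM at day 7 and 0.563 CPM at day 21. Cfd did not pass (log2 fold change -0.18), and the list median was -0.18 beside -0.09 over all gene-end sums. All 12 macrophage markers had a region, and their sum was 123 to 135 CPM at day 7 and 132 to 158 CPM at day 21. Of these 12, 3 were higher at day 21 (C1qa, C1qc and Cd68) and none lower, with a median of 0.14, where 6.71% of all gene-end sums were higher and 24.6% lower. Of 8 melanoma markers Tyr and Slc45a2 had no region, and the sum of the other 6 was 165 to 178 CPM at day 7 and 162 to 174 CPM at day 21. Most of that sum was Pmel, with 123 ± 6.18 CPM at day 7 and 116 ± 5.47 CPM at day 21. Gene-end sums count a region for every gene whose end it lies near, so this signal need not belong to Pmel alone. Of the 5 tested, Tyrp1 and Sox10 were lower (log2 fold change -2.23 and -1.30) and Mitf was higher (log2 fold change 0.20), with a median of -0.09. Tyrp1 and Sox10 were weak, at means of 1.32 and 1.30 CPM at day 7 and 0.301 and 0.572 CPM at day 21. For T and NK cells 10 of 12 had a region (not Lck and Ncr1), summing to 55.98 to 69.7 CPM at day 7 and 54.3 to 63.8 CPM at day 21. Of the 8 tested, 4 were lower, Bcl11b, Gzmb, Cd2 and Cd28 (log2 fold change -2.03, -1.59, -0.80 and -0.67), and Klrb1c was higher (log2 fold change 0.51), with a median of -0.44. Bcl11b and Gzmb were weak, at means of 2.13 and 1.63 CPM at day 7 and 0.580 and 0.542 CPM at day 21. Cd3d and Klrb1c made up most of the sum, at means of 25.4 and 13.99 CPM at day 7. For stromal cells 6 of 8 had a region (not Col1a2 and Col3a1), summing to 46.3 to 50.00 CPM at day 7 and 38.4 to 48.4 CPM at day 21. Of the 5 tested, Cdh5 was lower (log2 fold change -1.02) and none was higher, with a median of -0.26. Within the cDC1 list, 10 genes were tested, of which 1 was lower and 1 higher, with a median of 0.01. The lower one was Irf8, the factor that specifies cDC1s. At its gene ends it held 54.8 ± 5.91 CPM at day 7 and 38.2 ± 2.84 CPM at day 21 (log2 fold change -0.51, edgeR adjusted p = 8.15e-08). Wdfy4, needed for cross-presentation, rose from 16.7 ± 1.74 to 23.3 ± 1.61 CPM (adjusted p = 0.000157). The part of these levels, and of depth, in the changes of the 9 genes was not tested, except that with every library thinned to the smallest total 4 gene sums were lower and none was higher.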

How the data were processed

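ATAC-seq counts of 8 libraries were used, 4 at day 7 and 4 at day 21, grouped by their labels. The authors deposited raw counts in a single table with a column for each library. The tools named, per the submitters' processing notes, are MACS2 2.1.0.20150603, bedtools, SAMtools, Picard 1.65 and cutadapt 1.9, and the build is mm10. The aligner, the counting rule and the counting base of the coordinates are not given in the sources used here. Genes and promoters came from RefSeq tables of GRCm38.p6. The gene table gives no strand, so windows of 1000 bp around both ends served as gene ends.

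The test was that of edgeR 4.0.16 (R 4.3.3; filterByExpr, TMM factors of 0.978 to 1.01, quasi-likelihood, day as the term) on the whole table of regions, of gene sums and of gene-end sums, with Benjamini-Hochberg values over each. The SE is the size of the log2 fold change divided by the root of F. The model was tested on simulated data of 16922 gene sums, where it recovered 98% of changes of 1 and 40.4% of changes of 0.5 on the log2 scale. The simulated noise was the same for all genes and set above the common level fitted to the real gene sums. These shares therefore do not measure how often a change of that size would be called in the data. Alternatives were DESeq2 1.42.0, limma-voom (3.58.1), other scalings, filters and windows, a block on the replicate number, and each library left out.

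The members and lists were chosen with earlier results of these data known. A further list of cell type markers is not reported here. Named were all 9 genes, all regions of Scd1 and Scd2, gene-end regions and up to 2 called regions each way of the others, and the first 4 called genes each way of the wider list; the leading Acaca region, the other Fasn region, the Srebf1 region over the start at 60220627, the regions beside Scd3 and Scd4, the lower Elovl6 region at 129494131, and the cell type markers given with values were added after their values were seen. The order of filter and TMM was also changed after the results had been seen: filtering first, with TMM on full totals, replaced filtering after TMM on filtered totals. Replicate numbers did not pair the libraries (correlations of deviations 0.00411 to 0.00975).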

Additional observations from a re-analysis of the deposited data

Results flagged for a closer look

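Among 114 groups of 4 libraries looked at, 5 held a library far from the other 3 by the size of its gap to them, and chance alone marks about 1 group in 20. In the Srebf1 gene sum at day 21, replicate 2 stood at 78.03 CPM and the others at 74.96 to 75.1 CPM. In the weak Scd2 region chr19:44271650-44271838, replicate 2 stood at 2.87 CPM at day 7, with the others at 1.55 to 1.69 CPM, and replicate 4 at 2.13 CPM at day 21, with the others at 1.38 to 1.48 CPM. In the Scd2 region chr19:44295789-44296101, day 7 replicate 3 was low, at 10.3 CPM beside 11.9 to 12.1 CPM. In the Elovl6 region chr3:129494131-129494562, day 21 replicate 2 was low, at 0.842 CPM beside 1.27 to 1.297 CPM.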

How the results depend on the processing

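Of the values recomputed for single genes and regions, 914 kept their direction where called and their side of the threshold, 78 lost and 17 gained a call, and 1 reversed: the Scd1 gene sum with the gene body only (log2 fold change 0.31), which leaves out the region at 44388366. Member regions higher were 5, with 3 in DESeq2 and 1 to 6 when 1 library was left out. Gene sums higher were 0, with 1 in DESeq2, 1 with trended offsets, 1 with the gene body only and 0 to 1 when 1 library was left out. Gene-end sums higher were 0, with 1 in DESeq2, 1 with trended offsets and 0 to 1 when 1 library was left out; those lower were 4, with 2 in DESeq2, 1 with trended offsets and 2 to 4 when 1 library was left out. Wider pathway sums higher were 3, with 5 in DESeq2, 5 with trended offsets, 6 with the gene body only and 1 to 4 when 1 library was left out, and those lower were 8, with 5 for the gene body only. With the gene body only the ratio changes were 0.59 for Scd1 over Scd2 and -0.44 for Fads1 over Fads2. The cause was not tested, except that body-only and left-out settings hold fewer regions or libraries.

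With the replicate block, member regions were 4 higher and 11 lower, gene sums 0 and 4, gene-end sums 0 and 4, wider pathway sums 4 and 8, and the 2 ratio changes 0.13 and -0.12 (adjusted exact p = 0.25 each, from 4 pairs). The settings first tried, with the filter after TMM, tested 121955 regions and called 6 member regions higher, the added one being the Scd1 region at 44407335 (adjusted p = 0.0498). Regions under about 2 CPM rest on few counts, and how small a change could be called there was not measured.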
